A study of Homo sapiens with 12 samples.

Results

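The levels of 9 genes that mark thyroid identity were followed through 12 RNA sequencing libraries of SW1736 cells. They are the transcription factor genes PAX8, NKX2-1, HHEX, FOXE1 and GLIS3, the TSH receptor gene TSHR, and SLC5A5, DUOX1 and TG, whose products carry out iodide uptake and hormone synthesis. They were chosen by symbol, as the 9 listed symbols among the 56832 gene symbols of the count files. FOXE1 and TSHR had 0 counts in all 12 libraries, and SLC5A5, DUOX1 and TG had between 2 and 15 counts in total. PAX8, NKX2-1, HHEX and GLIS3 had at least 1 count in every library, at low level. GLIS3 was the member whose libraries with T3 lay above the vehicle libraries in both vectors.

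A thyroid follicular cell takes up iodide from the blood through the sodium-iodide symporter, oxidises it with hydrogen peroxide made by the DUOX enzymes and attaches it to tyrosines of thyroglobulin. TSH, acting through its receptor and cAMP, keeps this machinery expressed. PAX8, NKX2-1, FOXE1 and HHEX are expressed together in the thyroid bud and later hold the follicular programme in place, and anaplastic thyroid cancers characteristically lose much of it.

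SW1736 is an established cell line derived from an anaplastic thyroid cancer. Per the labels, the cells carried pCDH-EV (the empty vector, here EV) or pCDH-TRB (stable expression of thyroid hormone receptor beta, here TRB). All cells were kept without hormone for 24 h in medium with charcoal-stripped serum. They then received 10 nM of the thyroid hormone T3, or its NaOH vehicle, for 24 h. The 4 groups are EV vehicle, EV T3, TRB vehicle and TRB T3, each with 3 libraries. The labels do not say whether the libraries of a group came from separate cultures, or whether the transduced cells were a pool or a clone, so p-values measure only the spread between these libraries.

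Each library held 3819306 to 13086717 counts within genes, over 17833 to 22881 symbols. A gene with 0 counts in a library could still have had up to 3, which corresponds to 0.225 to 0.758 CPM (the usual count rate, after TMM scaling of library sizes) depending on the library, as a limit for counting error only. THRB, the gene of the supplied receptor, stood at 12.3 to 18.2 CPM in the 6 EV libraries and at 79.6 to 321 CPM in the 6 TRB libraries. KLF9, a direct T3 target, stood at 7.91 to 14.5 CPM in the 6 vehicle libraries and at 104 to 257 CPM in the 6 libraries with T3. TRB T3 replicate 2 stood apart: it had counts for 17833 symbols and a TMM scaling factor of 0.786, against 0.995 to 1.05 in the other 11 libraries. Across genes, its gap in log2 CPM to the other pair of its group had a Spearman correlation of -0.89 with gene GC content, a description over genes, which are not replicates. The same measure ran from -0.82 to 0.87 in the other 11 libraries, so on this measure alone it was the lowest but not far from EV T3 replicate 2. It is kept among the 12 libraries, and fits without it have 11 libraries.

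Promoter sequences of 8 of the 9 genes were found in a table from RefSeq (build GRCh38.p14), which gives 250 bases before and 50 after a start site. The windows of 3 genes are shown, because they set the gene that was highest with T3 beside a silent and a lower one. T3 receptors bind the hexamer AGGTCA or variants such as GGGTCA, classically as a direct repeat spaced by 4 bases. The windows were searched on both strands for AGGTCA, for GGGTCA and for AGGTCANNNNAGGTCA, the repeat, whose matches also count under AGGTCA. Matched hexamers are in capitals. The GLIS3 window is chr9:4298447-4298746 and the PAX8 window chr2:113278872-113279171, both on the minus strand, and the TSHR window is chr14:80955371-80955670 on the plus strand.
GLIS3: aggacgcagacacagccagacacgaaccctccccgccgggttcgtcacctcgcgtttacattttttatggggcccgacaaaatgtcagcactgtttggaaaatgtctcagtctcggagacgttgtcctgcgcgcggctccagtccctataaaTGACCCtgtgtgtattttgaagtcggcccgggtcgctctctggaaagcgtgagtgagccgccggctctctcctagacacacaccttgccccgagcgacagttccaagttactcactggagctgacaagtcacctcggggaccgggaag
PAX8: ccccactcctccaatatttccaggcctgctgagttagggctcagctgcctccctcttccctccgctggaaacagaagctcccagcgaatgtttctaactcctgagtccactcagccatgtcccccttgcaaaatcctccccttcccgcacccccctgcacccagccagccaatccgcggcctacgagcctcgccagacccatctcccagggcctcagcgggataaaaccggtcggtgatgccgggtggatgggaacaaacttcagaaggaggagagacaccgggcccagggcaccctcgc
TSHR: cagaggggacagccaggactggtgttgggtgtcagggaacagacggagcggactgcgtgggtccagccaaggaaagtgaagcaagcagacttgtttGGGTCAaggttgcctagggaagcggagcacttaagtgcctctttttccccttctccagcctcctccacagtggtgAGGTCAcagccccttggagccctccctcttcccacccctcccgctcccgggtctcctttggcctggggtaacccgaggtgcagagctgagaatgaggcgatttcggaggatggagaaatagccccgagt

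The GLIS3 window held 1 GGGTCA hexamer, read on the opposite strand as the capitals TGACCC, 98 bases before the start site. A second GLIS3 window, chr9:4152134-4152433, held none. TSHR, the receptor gene without a count, held 1 of each hexamer, 154 bases (GGGTCA) and 79 bases (AGGTCA) before its start site. The SLC5A5 window held 1 GGGTCA hexamer 43 bases before the start, and the windows of PAX8, NKX2-1, HHEX, FOXE1 and DUOX1 held none. Among 35116 RefSeq promoters of the same length, 13.8% held AGGTCA, 14.1% GGGTCA and 25.6% at least 1 of them. The spaced repeat was in 0.0199% of these promoters and in none of the 10 windows of the 8 genes.

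Per kilobase of exon, averaged over the 12 libraries, GLIS3 stood at 0.710 CPM per kb and PAX8 at 0.623. HHEX stood at 0.468 and NKX2-1 at 0.333 CPM per kb. All 4 were in the low range of expressed genes: the median over tested genes was 7.01 CPM per kb, and 9.2% of tested genes lay below GLIS3 and 4.07% below NKX2-1. DUOX1 reached 0.0133 CPM per kb, TG 0.0113 and SLC5A5 0.00476. Scaled by coding length, PAX8 (3.41 CPM per kb) stood above GLIS3 (3.01 CPM per kb), so the order of these neighbours depends on which length is used. The ranges over libraries of GLIS3 (0.538 to 0.999 CPM per kb of exon), PAX8 (0.0971 to 0.941) and HHEX (0.122 to 1.07) overlapped.

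**Figure D1:**
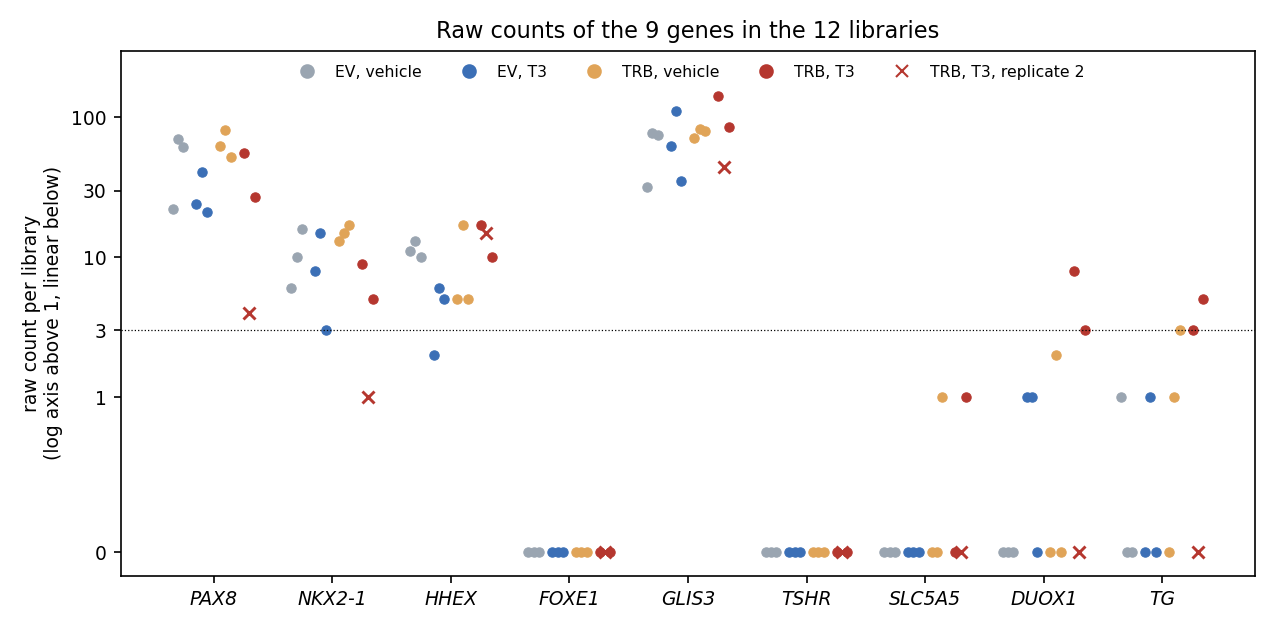
Raw counts of the 9 genes in each of the 12 libraries; the vertical axis is logarithmic above 1 count and linear below, and the dotted line marks 3 counts. PAX8, NKX2-1, HHEX and GLIS3 have a count in all 12 libraries, while FOXE1 and TSHR lie at 0 throughout; the cross marks TRB T3 replicate 2, where PAX8 has 4 counts.

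PAX8 encodes the paired-domain factor that switches on TG and the symporter gene, and lies at chr2:113215997-113278950 on the minus strand. Its raw counts in replicates 1, 2 and 3 were 22, 70 and 61 in EV vehicle and 24, 41 and 21 in EV T3. They were 62, 81 and 52 in TRB vehicle and 56, 4 and 27 in TRB T3. The count of 4 comes from the library that stood apart, although it was not the shallowest. Scaled to library size, PAX8 stood at 4.77, 5.71 and 5.60 CPM in EV vehicle and at 3.70, 4.32 and 5.30 in EV T3. In TRB cells it stood at 6.29, 6.97 and 4.35 CPM with vehicle and at 4.19, 0.718 and 3.36 with T3. In EV cells the groups overlapped, while in TRB cells all 3 libraries with T3 lay below all 3 with vehicle, though the lowest vehicle and the highest T3 library were close. For 40.8% of all tested genes these TRB groups did not overlap, in either direction.

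With T3 in TRB cells the log2 change of PAX8 was -1.01 (SE 0.420, 95% interval -1.94 to -0.081, edgeR adjusted p 0.137) and did not pass the threshold of 0.05. The change was -0.56 without TRB T3 replicate 2 (SE 0.228, edgeR adjusted p 0.0794). After correction for GC content the change was -0.72 with 12 libraries (edgeR adjusted p 0.0254) and -0.68 with 11 (edgeR adjusted p 0.0169), and PAX8 passed in both of these fits. In EV cells the change was -0.30 (edgeR adjusted p 0.94). With GC correction it was -0.49 with 12 libraries (edgeR adjusted p 0.297) and -0.50 with 11 (edgeR adjusted p 0.139), and neither passed. The difference of the PAX8 responses between the vectors was -0.71 with 12 libraries (edgeR adjusted p 0.460). With GC correction on 11 libraries this difference was -0.18 (edgeR adjusted p 0.702), and neither value passed. PAX8 is GC-rich (57.0%), and its level in TRB T3 replicate 2 was 0.190 of the mean of replicates 1 and 3.

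An antisense gene, PAX8-AS1, shares 685 of the 7400 exon bases of PAX8 and was counted far more often. There were 7.72 to 28.8 counts of PAX8-AS1 for each count of PAX8, and 7.72 to 15.2 without TRB T3 replicate 2. Whether the counting used strand is not given in the sources used here, so reads of the shared exons are uncertain. PAX8-AS1 changed by -0.64 with T3 in TRB cells (edgeR adjusted p 0.136) and by 0.069 in EV cells, and neither change passed. Without TRB T3 replicate 2 the change in TRB cells was -0.31 (edgeR adjusted p 0.0647).

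NKX2-1, the homeodomain factor also called TTF-1, works with PAX8 on the TG promoter and is used by the lung as well. It lies at chr14:36516392-36521149, minus strand. It had 6, 10 and 16 counts in EV vehicle and 8, 15 and 3 in EV T3. It had 13, 15 and 17 counts in TRB vehicle and 9, 1 and 5 in TRB T3. On the CPM scale the EV cells averaged 1.20 ± 0.339 (SD, n = 3) with vehicle and 1.19 ± 0.414 with T3, and the TRB cells 1.34 ± 0.0704 with vehicle. TRB T3 was the lowest group at 0.492 ± 0.272 CPM, with replicates at 0.674, 0.180 and 0.623, and its libraries did not overlap those of any other group. Libraries did not overlap between TRB and EV cells with T3 for 26.3% of all tested genes, and between TRB T3 and EV vehicle for 28.8%. Between TRB T3 and TRB vehicle they did not overlap for 40.8%.

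With T3 in TRB cells the log2 change of NKX2-1 was -1.30 (SE 0.403, edgeR adjusted p 0.0541), and it was -0.98 without TRB T3 replicate 2 (SE 0.384, edgeR adjusted p 0.0691). It passed in limma-voom (-1.36, limma adjusted p 0.0476) and with GC correction on 11 libraries (-1.08, edgeR adjusted p 0.0369). In EV cells the change with T3 was 0.10 (SE 0.387, edgeR adjusted p 0.962). The difference of the T3 responses between the vectors was -1.40 (SE 0.562, edgeR adjusted p 0.214) and did not pass. NKX2-1 is GC-rich as well (60.6%), and its level in TRB T3 replicate 2 was 0.277 of the mean of replicates 1 and 3. The annotated antisense gene NKX2-1-AS1 shares 402 of its 3165 exon bases.

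HHEX encodes a homeodomain repressor of early endoderm, thyroid bud and liver, and lies at chr10:92689951-92695646, plus strand. HHEX had 11, 13 and 10 counts in EV vehicle, 2, 6 and 5 in EV T3, 5, 17 and 5 in TRB vehicle, and 17, 15 and 10 in TRB T3. In the same order of groups its means were 1.45 ± 0.809 CPM (SD, n = 3), 0.735 ± 0.485, 0.796 ± 0.579 and 1.74 ± 0.828. The groups overlapped in every comparison. With T3 the fitted change was 1.03 in TRB cells (SE 0.581, edgeR adjusted p 0.251), or 0.69 with 11 libraries (SE 0.557, edgeR adjusted p 0.385), and -0.96 in EV cells (SE 0.677, edgeR adjusted p 0.935). The difference between these responses was 1.99 (SE 0.891, 95% interval 0.021 to 3.96, edgeR adjusted p 0.247), a wide interval at 2 to 17 counts per library. In TRB T3 replicate 2 HHEX was at 2.14 of the mean of replicates 1 and 3, and it is poorer in GC (46.8%) than PAX8 and NKX2-1.

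FOXE1, the forkhead factor needed for the thyroid bud to migrate, had 0 counts in each of the 12 libraries. It lies at chr9:97853254-97856715 and has no annotated overlap with another gene. Pooled over a group, 0 counts allow at most 3.69 counts (95% exact Poisson limit), or 0.110 to 0.185 CPM. FOXE1 was not detectable at this depth in any group.

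GLIS3, a Kruppel-like zinc finger factor required for thyroid hormone synthesis and also active in pancreatic beta cells and kidney, was the most counted of the 9 genes. It lies at chr9:3824127-4348392 on the minus strand. Its counts were 32, 78 and 75 in EV vehicle and 63, 112 and 35 in EV T3. They were 71, 82 and 80 in TRB vehicle and 143, 44 and 86 in TRB T3. The libraries of a group differed in depth, so the scaled values are given as well. As CPM the EV cells held 6.94, 6.36 and 6.88 with vehicle and 9.70, 11.8 and 8.84 with T3. The TRB cells held 7.20, 7.05 and 6.70 with vehicle and 10.7, 7.90 and 10.7 with T3. Every library with T3 lay above every vehicle library, in both vectors, and the lowest of them was TRB T3 replicate 2. Among all 14431 tested genes, 3.28% showed T3 above vehicle without overlap in both vectors.

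**Figure D2:**
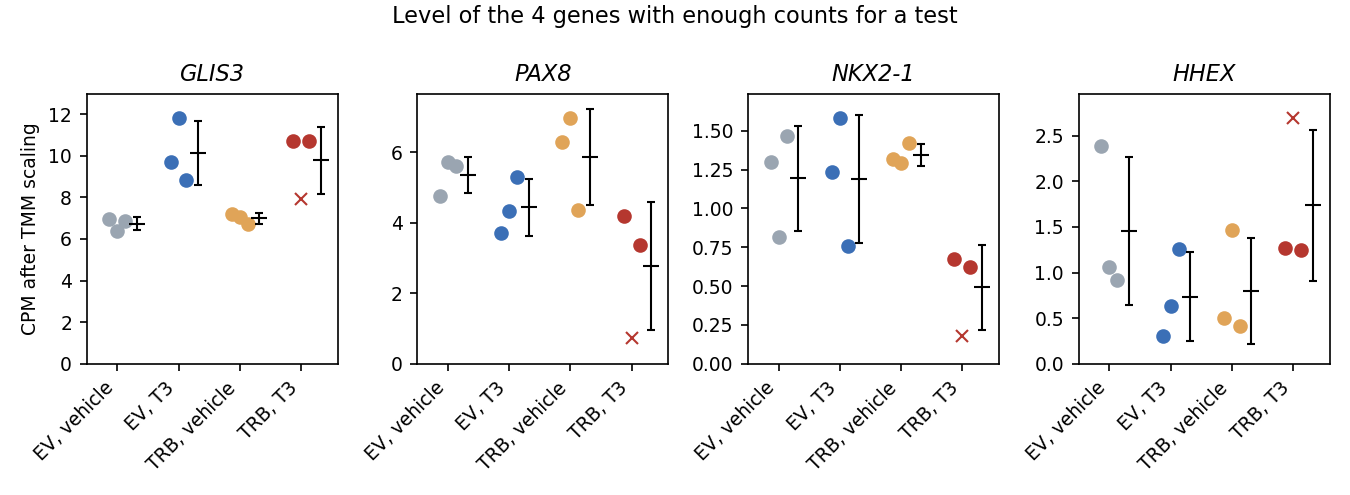
Level of GLIS3, PAX8, NKX2-1 and HHEX in CPM after TMM scaling, with a point for each library and the mean and SD of each group of 3 as a bar beside it. The 6 GLIS3 libraries with T3 sit between 7.90 and 11.8 CPM, above the 6 with vehicle at 6.36 to 7.20 CPM; the cross marks TRB T3 replicate 2.

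With 12 libraries the GLIS3 change with T3 did not pass in TRB cells (0.49, SE 0.188, edgeR adjusted p 0.110) or in EV cells (0.60, SE 0.192, unadjusted p 0.0101, edgeR adjusted p 0.473). Without TRB T3 replicate 2, GLIS3 rose in both. The change was then 0.67 on the log2 scale in TRB cells (SE 0.154, 95% interval 0.33 to 1.00, edgeR adjusted p 0.00495). In EV cells it was 0.63 (SE 0.151, 95% interval 0.30 to 0.96, edgeR adjusted p 0.0297). Neither EV group contains that library, and what moved this call was not tested. Of all 14825 genes tested with 11 libraries, 3.02% were called higher with T3 in both vectors.

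The test of the difference between the GLIS3 responses of the vectors did not pass. The difference was -0.11 with 12 libraries (SE 0.268, 95% interval -0.70 to 0.48, edgeR adjusted p 0.799) and 0.034 with 11 (95% interval -0.44 to 0.50). TRB and EV cells differed by 0.057 in vehicle (95% interval -0.36 to 0.48) and by -0.051 with T3 (95% interval -0.47 to 0.37), the latter turning to 0.11 with 11 libraries. None of these passed. GLIS3 shares 197 of its 11826 exon bases with other annotated genes.

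TSHR, the G-protein coupled receptor for TSH, had 0 counts in all 12 libraries, as FOXE1 did. It spans chr14:80954989-81146302. Its exons share 0 bases with exons of other annotated genes, although 6 such genes overlap its span. SLC5A5, the sodium-iodide symporter gene at chr19:17871973-17895174, had 2 counts in all, 1 in TRB vehicle replicate 3 and 1 in TRB T3 replicate 3. Neither gene can be compared between groups at this depth.

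DUOX1 encodes a dual oxidase that supplies hydrogen peroxide, and lies at chr15:45129933-45165576. Its counts were 0, 0 and 0 in EV vehicle, 1, 1 and 0 in EV T3, 0, 2 and 0 in TRB vehicle, and 8, 0 and 3 in TRB T3. The highest values were in replicates 1 and 3 of TRB T3, and replicate 2 of that group was at 0. Pooled over each group, TRB T3 held 11 counts (95% exact Poisson interval 5.49 to 19.7) and TRB vehicle 2 (0.242 to 7.22), intervals that overlap. EV vehicle held 0 (0 to 3.69), an interval that does not overlap that of TRB T3. These intervals cover counting error only and are not scaled for depth. DUOX1 did not pass the count filter. In a fit without that filter its adjusted p for T3 in TRB cells was 0.286 in edgeR, where 5.97% of 30412 genes were called. Between TRB T3 and EV vehicle that fit gave a log2 change of 4.80 (95% interval 1.37 to 8.24, edgeR adjusted p 0.139), which did not pass. EV vehicle had 0 counts, so this change is no measured ratio and its size and interval cannot be relied on. In that fit 6.33% of genes had a smaller p for this comparison.

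TG, the gene of the thyroglobulin scaffold on which hormone is made, had 1, 0 and 0 counts in EV vehicle and 0, 1 and 0 in EV T3. It had 0, 1 and 3 counts in TRB vehicle and 3, 0 and 5 in TRB T3. TG reached the limit of 3 counts in 3 libraries, all of TRB cells. Without the count filter its edgeR adjusted p for T3 in TRB cells was 0.602.

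Over the 9 genes, 4 passed the count filter, each with counts in all 4 groups, and 5 did not. For T3 in TRB cells, edgeR with 12 libraries called 0 of the 4, where it called 14.7% of all tested genes. At an unadjusted p under 0.05 there were 3 (PAX8, NKX2-1 and GLIS3), and 4378 of all 14431 tested genes. DESeq2 called 0 and limma-voom 1. The shares of all genes called by these tools are not given, here or for the comparisons below, so their calls cannot be set against a background. With 11 libraries edgeR called 1 (GLIS3, higher), where it called 33.3% of all genes, and 18.1% of all genes as higher. With GC correction it called 2 on 12 libraries (GLIS3 higher and PAX8 lower), where it called 42.8% of the genes with a GC value. On 11 libraries it called 3, GLIS3 higher and PAX8 and NKX2-1 lower, against 56.1%. The groups did not overlap for these 3 genes, as for 40.8% of all tested genes with 12 libraries. The median log2 change of the 4 was -0.26 with 12 libraries and turned to 0.053 with 11, against 0.0068 and -0.011 over all tested genes.

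For T3 in EV cells edgeR called 0 of the 4 with 12 libraries, where it called 0.229% of all genes. Of the 4, 1 had an unadjusted p under 0.05, as did 881 of all 14431 tested genes. With 11 libraries edgeR called 1 (GLIS3), where it called 7.33% of all genes. DESeq2 and limma-voom called 0. GLIS3 was also the 1 gene of the 4 whose groups did not overlap in EV cells, as for 26.9% of all tested genes.

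Between TRB and EV cells in vehicle, 0 of the 4 were called in edgeR, DESeq2 or limma-voom, and 0 had an unadjusted p under 0.05. The background in edgeR was 0.0208% of all genes called, and 213 of 14431 tested genes with an unadjusted p under 0.05. The 4 changes ran from -0.70 (HHEX) to 0.20 (NKX2-1), and their groups overlapped, where 36.3% of all tested genes had groups that did not. Under T3 the TRB and EV cells had 0 of the 4 called by any of these 3 tools, and edgeR called 6.68% of all genes. NKX2-1 had the 1 unadjusted p under 0.05 there, at a change of -1.20 (SE 0.431, edgeR adjusted p 0.125). Of all 14431 tested genes, 3679 had an unadjusted p under 0.05 in this comparison.

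Between TRB T3 and EV vehicle, which also share libraries with the comparisons above, edgeR called 0 of the 4 with 12 libraries and 10.6% of all genes. Of the 4, 2 had an unadjusted p under 0.05, as did 3337 of all 14431 tested genes, and limma-voom called 0 of the 4. DESeq2 called GLIS3 (0.65, DESeq2 adjusted p 0.0280), as did edgeR with 11 libraries (0.74, SE 0.158, edgeR adjusted p 0.00312), where 33.7% of all genes were called. The interaction of vector and T3 was called for 0 of the 4 by all 3 tools, where edgeR called 2.59% of all genes. Its unadjusted p was under 0.05 for 2 of the 4 (NKX2-1 and HHEX), and for 2879 of all 14431 tested genes.

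**Figure D3:**
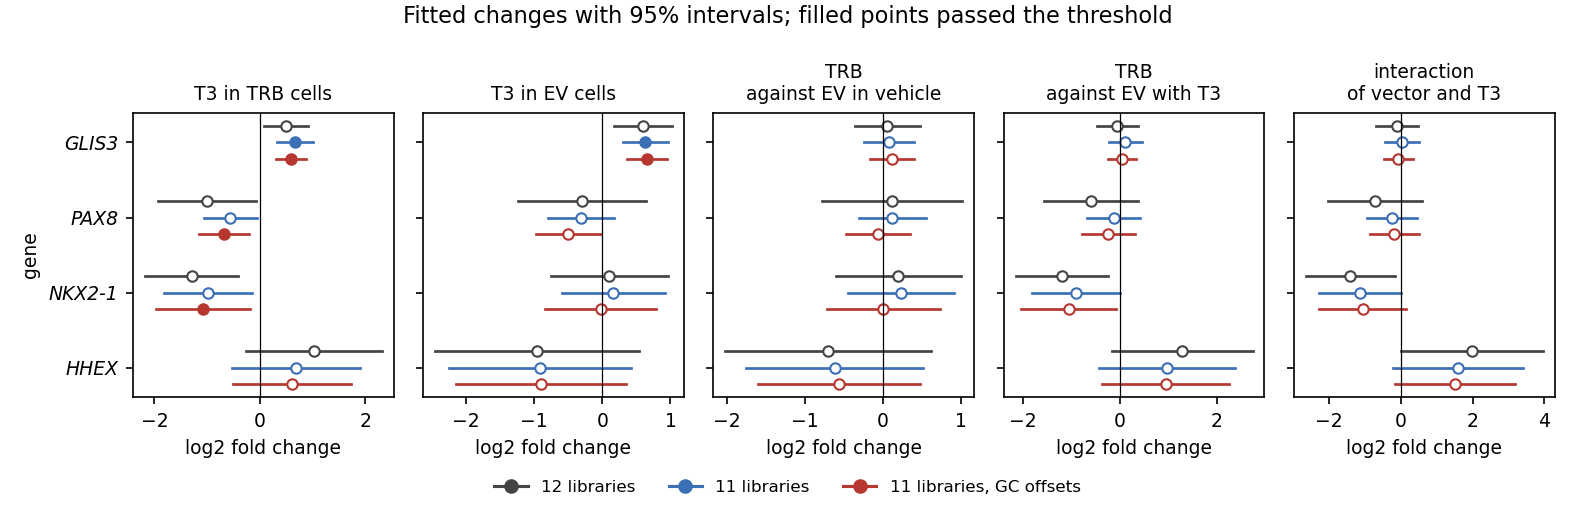
Fitted log2 fold changes of the 4 tested genes in 5 comparisons, with 95% intervals, from edgeR with 12 libraries, with 11 libraries, and with 11 libraries after GC correction; horizontal scales differ between panels. GLIS3 is filled, which means past an adjusted p of 0.05, for T3 in both vectors in both fits of 11 libraries, while PAX8 and NKX2-1 are filled for T3 in TRB cells only after GC correction.

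For each of the 4 genes the 3 genes with the most similar log2 CPM across the 12 libraries were looked up among the well-expressed genes (10094 candidates for GLIS3). GLIS3 ran closest to MICAL2 (Pearson r 0.93), CHD3 (0.92) and RNF213 (0.91), and with 11 libraries to SRGAP2, NEAT1 and TMEM2 (0.95 each). PAX8 ran closest to SLC4A11, PACSIN3 and DGUOK (r 0.97 each), but with 11 libraries these fell to between 0.79 and 0.80. NKX2-1 ran closest to NPAS2 (0.95), EIF2B2 (0.94) and GPR39 (0.93). With 11 libraries TMEM242 (0.88) and ANAPC1 (0.87) lay nearer to NKX2-1 than NPAS2 (0.86). HHEX had SLC10A7 as its nearest gene, at 0.81, but CASP2 with 11 libraries (r 0.88, against -0.30 with 12). These values describe libraries that share group, depth and GC composition, and TRB T3 replicate 2 moves most of them.

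Genes that serve the same steps were described from lists. For T3 in TRB cells 8.54% of all tested genes were called higher and 6.2% lower with 12 libraries, and 18.1% and 15.2% with 11. In EV cells 0.229% were called with T3 in either direction with 12 libraries, and 7.33% with 11. Of 11 other genes of iodide handling and hormone synthesis, 3 were tested. DUOX2, the second dual oxidase, had 21 counts in total, and SLC26A4, the apical iodide exchanger pendrin, had 10. IYD, which recycles iodide from iodotyrosines, had 56 counts. ANO1, a calcium-activated chloride channel that also passes iodide at the apical membrane, was the 1 called gene for T3 in TRB cells. It went from 58.5 ± 0.964 CPM (SD, n = 3) with vehicle to 273 ± 44.6 with T3 (log2 2.22, SE 0.159, edgeR adjusted p 1.22e-05). With 11 libraries 4 were tested, and 1 rose and 2 fell. CFTR, the chloride channel mutated in cystic fibrosis, then fell by 0.85 on the log2 scale (edgeR adjusted p 0.000726), and IYD was called lower at 26 counts in the 3 TRB vehicle libraries against 1 in the pair of TRB T3 libraries left.

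Of 15 genes for thyroglobulin folding, uptake and proteolysis, 13 were tested, and 6 rose and 0 fell with T3 in TRB cells. With 11 libraries 10 rose and 0 fell. Their median log2 change was 0.71, against 0.0068 over all tested genes. These are general endoplasmic reticulum and lysosomal genes that most cells express. The chaperone HSPA5 rose by a log2 change of 1.55 (SE 0.249, edgeR adjusted p 0.00199) and calreticulin (CALR) by 1.53 (SE 0.211). The cysteine protease CTSL rose by 2.45 (SE 0.342), from 3.25 ± 0.792 to 17.9 ± 6.65 CPM. HSP90B1 rose by 1.77 (edgeR adjusted p 0.0318), but TRB T3 replicate 2 stood at 4731 CPM where replicates 1 and 3 stood at 1137 and 1116. Without that library HSP90B1 rose by 0.78 (edgeR adjusted p 0.00110), and its call was lost when any 1 of the 3 TRB vehicle libraries was left out (adjusted p up to 0.0997). In EV cells 0 of the 13 were called with 12 libraries, and 4 rose with 11.

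Of 27 genes between the TSH receptor and cAMP signalling, 22 were tested, and 2 changed with T3 in TRB cells. PDE4D, a cAMP phosphodiesterase, rose by 1.92 (SE 0.322, edgeR adjusted p 0.00261). RAPGEF3, the cAMP-activated exchange factor EPAC1, fell, with a log2 change of -2.01 (SE 0.307, edgeR adjusted p 0.00143), from between 24.4 and 27.3 CPM to between 3.05 and 8.54 CPM. With 11 libraries 4 rose and 5 fell in TRB cells, and 0 rose and 6 fell in EV cells, where 0 were called with 12.

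Among 25 genes of thyroid gland formation, 16 were tested, and 5 rose and 5 fell with T3 in TRB cells. TBX3, a T-box factor, rose by 2.11 (SE 0.153), from 37.2 ± 3.39 to 160 ± 11.8 CPM, and was called in EV cells too (0.93, edgeR adjusted p 0.0370). The call in EV cells was lost in 10 of the 12 fits that left out a library, each EV library among them, with an adjusted p up to 0.186. FOXA1, an endodermal pioneer factor, rose by 1.72 (SE 0.157). The Notch ligand JAG1 fell by 1.79 on the log2 scale (SE 0.151), from 107 ± 3.20 to 31.1 ± 3.01 CPM, and HOXA3 fell by 1.47 (SE 0.236). With 11 libraries 6 of 17 rose and 9 fell. The list thus moved in both directions.

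Of 13 cofactors of PAX8 and NKX2-1, 12 were tested and 1 was called for T3 in TRB cells: the corepressor TLE3 rose by 1.64 (SE 0.373, edgeR adjusted p 0.0136), a call that was lost without any 1 of the 3 TRB vehicle libraries (adjusted p up to 0.0637). With 11 libraries 6 rose and 0 fell. Among 28 close relatives of the 9 genes, 10 were tested, and 3 rose and 1 fell in TRB cells. NOX1, an NADPH oxidase related to DUOX1, rose by 4.41 (SE 0.262), from 1.72 ± 0.520 to 36.6 ± 3.06 CPM, and by 1.59 in EV cells (edgeR adjusted p 0.0348). The NOX1 call in EV cells was likewise lost in 10 of those 12 fits, with an adjusted p up to 0.231. LGR5, a receptor of the same family as TSHR and a stem cell marker of the gut, rose by 2.47 (SE 0.221), while LGR6 fell by 1.63 on the log2 scale. The forkhead gene FOXC1 rose by 1.04 (SE 0.264). The calls of LGR6 and FOXC1 were lost without TRB vehicle replicate 1 or 3 (adjusted p up to 0.0597 and 0.0899). Of 7 other genes of the thyroid differentiation score 2 were tested, THRB and THRA, and THRB, which the vector carries, rose by 1.75 with T3 in TRB cells. THRA changed by -0.98 with 12 libraries and did not pass (edgeR adjusted p 0.172), and with 11 libraries it fell by 0.49 on the log2 scale (edgeR adjusted p 0.0130).

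**Figure D4:**
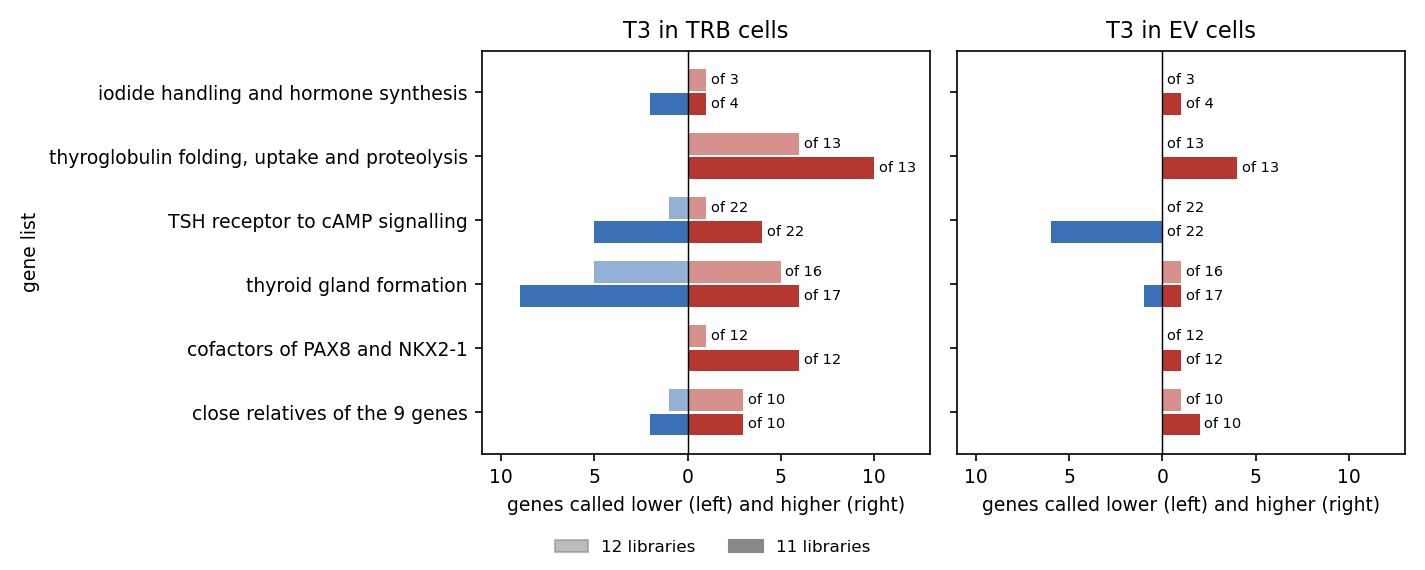
Number of genes in each list called higher (right) or lower (left) with T3 in TRB cells and in EV cells by edgeR, with 12 libraries (pale) and 11 libraries (dark); the number tested stands beside each bar. The list of thyroglobulin folding, uptake and proteolysis has 6 of 13 higher and 0 lower in TRB cells, and the gland formation list 5 higher and 5 lower.

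The label of the line was set against markers. The 7 follicular thyroid markers, which are all among the 9 genes, summed to 3.59 to 9.80 CPM per library. Of these, 0 of 7 reached 1 CPM in all 12 libraries, and PAX8 was below 1 CPM only in TRB T3 replicate 2 (0.718 CPM). The 5 epithelial markers (EPCAM, CDH1, KRT8, KRT18 and KRT19) all reached 1 CPM in all 12 libraries, with sums of 2024 to 5003 CPM. CDH1 rose with T3 in TRB cells (0.66, edgeR adjusted p 0.0101), a call lost without TRB vehicle replicate 3 (adjusted p 0.0608). EPCAM (0.46), KRT8 (-0.49), KRT18 (-0.53) and KRT19 (-0.25) did not pass there. In EV cells CDH1 changed by 0.11 with T3 (edgeR adjusted p 0.939) and did not pass. Of the mesenchymal markers, VIM stood at 0 to 1.51 CPM and CDH2 at 0 in all 12, while FN1 passed 1 CPM everywhere. FN1 rose with T3 in TRB cells (4.66, edgeR adjusted p 4.01e-06) and in EV cells (2.26, edgeR adjusted p 0.00367), the latter call being lost without EV vehicle replicate 1 or 3 (adjusted p up to 0.0697). ZEB1 rose in TRB cells, from 0.333 ± 0.0739 to 3.44 ± 1.23 CPM (SD, n = 3), and S100A4 changed by -0.56 there without passing. The summed level of this list was 18.8 to 27.7 CPM in the 6 vehicle libraries, 83.3 to 95 in EV T3 and 156 to 315 in TRB T3, of which FN1 alone made up 147 to 302 CPM in TRB T3 and 66.1 to 73.7 CPM in EV T3.

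Markers of other tissues were mixed. Of the lung markers SFTPC and its relatives, 3 of 6 were at 0 in all 12 libraries, and the list summed to 0.650 to 3.79 CPM. The kidney and Mullerian list had 3 of 6 at 0, PAX2 among them, and summed to 1.08 to 4.04 CPM. The C cell list had 3 of 6 at 0, CALCA, CHGA and RET, and summed to 1.50 to 7.83 CPM. Endothelial markers summed to at most 0.316 CPM. Of the liver list HNF4A stood at 23.2 to 125 CPM and ALB at or near 0, and of the blood list LYZ stood at 776 to 1586 CPM and PTPRC at 0 to 0.217. A list of 10 intestinal epithelial markers, chosen after HNF4A and LYZ had been seen, summed to 712 to 1208 CPM. It had 4 genes over 1 CPM in all libraries (LGALS4, VIL1, KRT20 and AGR2). CDX2 stood at 0 to 3.79 CPM, CDH17 at 0 to 1.72, MUC2 at 0 to 1.26 and GPA33 at 0 to 0.816. FABP1 was near 0 and CDX1 at 0. HNF4A fell with T3 in TRB cells (-1.81, edgeR adjusted p 0.000354) and so did LGALS4 (-1.85, edgeR adjusted p 0.0206), whose call was lost without any 1 of the TRB vehicle libraries (adjusted p up to 0.0728). VIL1 (0.092), KRT20 (0.0053) and AGR2 (0.40) did not pass there (edgeR adjusted p 0.651, 0.986 and 0.236). CDH17, at few counts, fell by 2.17 on the log2 scale (edgeR adjusted p 0.0466). That call was lost in 9 of the 12 fits that left out a library. Of the follicular markers of the labelled tissue, TSHR and FOXE1 were thus at 0, and TG and SLC5A5 near 0. PAX8 stood at 0.718 to 6.97 CPM, NKX2-1 at 0.180 to 1.58 and HHEX at 0.308 to 2.69. LGALS4, VIL1, KRT20 and AGR2 were high, while the other markers of the intestinal list stood at 3.79 CPM or lower. Whether the cells are SW1736 was not tested, and the values of the 9 genes hold for cells labelled as that line. What part these levels had in the values of the 9 genes was not tested. In bulk RNA, fewer cells expressing a gene and less RNA per cell cannot be told apart.

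**Figure D5:**
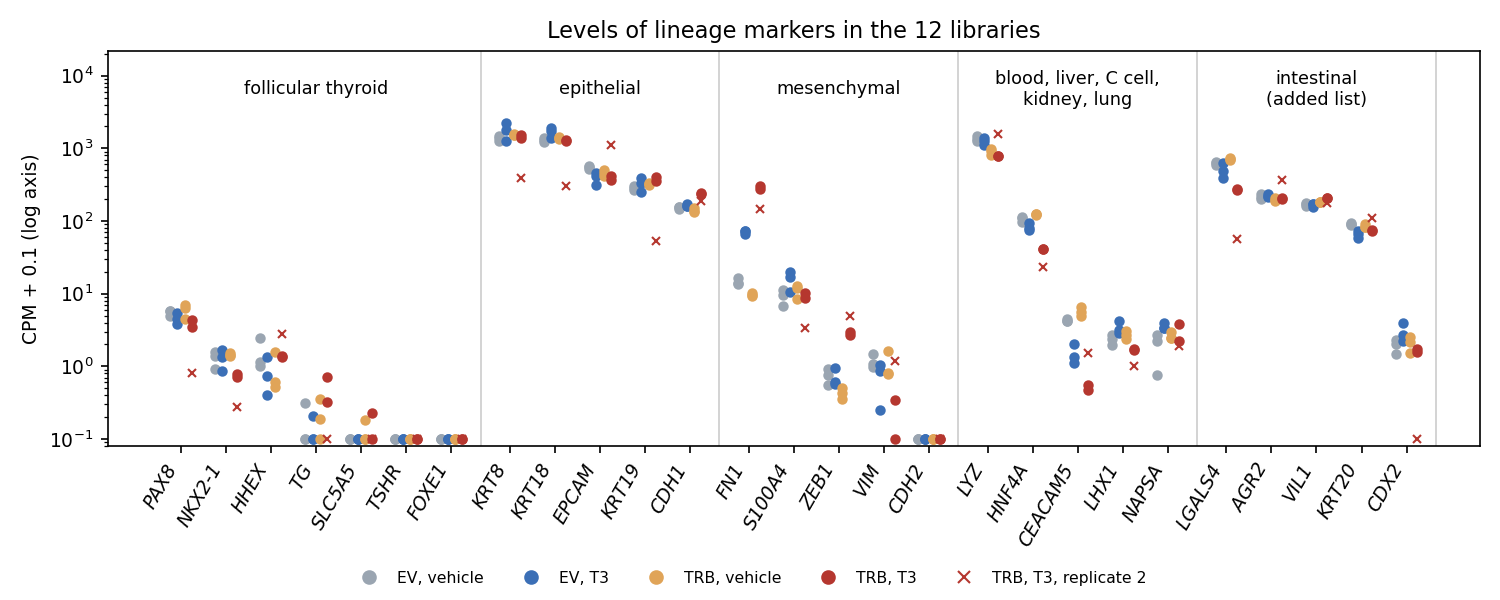
Levels of selected lineage markers in the 12 libraries, as CPM + 0.1 on a log axis, with a point for each library and a cross for TRB T3 replicate 2. Blood, liver, C cell, kidney and lung are each drawn by the gene of their list with the highest median CPM (LYZ, HNF4A, CEACAM5, LHX1 and NAPSA). The intestinal genes drawn are also the highest of their list, and the genes left out of these lists have lower medians. The follicular thyroid markers lie under 10 CPM and the epithelial markers mostly over 100 CPM, VIM lies near 1 CPM or lower, and LGALS4, AGR2, VIL1 and KRT20 lie mostly over 50 CPM.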

How the data were processed

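Per the submitters' processing notes, the tools were CASAVA 1.7, STAR 2.7, HTSeq 0.10 and DESeq2, with build hg38; annotation and strand setting are not given in the sources used here. For each of the 12 libraries the authors deposited a file of raw counts by gene symbol, and their table of normalized values was not used. Per the labels' protocols, RNA came from Trizol lysates and libraries from a Kapa Hyperprep kit.

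Genes passed filterByExpr with a minimum count of 10 and a minimum total of 15 (14431 genes, and 14825 with 11 libraries). Counts were TMM-scaled and fitted by the quasi-likelihood test of edgeR 4.0.16 (R 4.3.3) with 1 coefficient for each of 4 groups, two-sided, with Benjamini-Hochberg adjustment over all tested genes at 0.05. The standard error is the fold change over the root of its F statistic. A gene is said to rise or fall when it passed. The procedure was tested on simulated counts. Alternatives were DESeq2 1.42.0, limma 3.58.1 (voom), other scalings and filters, the compared groups alone, a replicate block, leaving out each library, and offsets that remove a spline trend on gene GC content (12130 of 14431 tested genes with a value, GENCODE 29).

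All 9 genes are named; for each of the 4 tested, the 3 nearest genes by Pearson correlation of log2 CPM (prior count 2, mean log2 CPM of at least 3); and from each list up to 4 called genes per comparison without overlap between groups. Further markers and uncalled genes were named after their values were seen. The 9 genes and the lists were chosen with earlier results of these data known. Depth per library is given with the results and limits genes under 3 counts.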

Additional observations from a re-analysis of the deposited data

Results flagged for a closer look

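The T3 response differed between TRB and EV cells, by the interaction term in edgeR with 12 libraries, for 7 of 79 tested genes of the lists (8.86%, against 2.59% of all tested genes) and for 0 of the 4 thyroid genes that could be tested. Without TRB T3 replicate 2 it was called for 30 of 81 genes of the lists, where 15.2% of all tested genes were called. The lists were chosen with earlier results of these data known, and THRB is 1 of the 7, so these shares are a description only. ANO1 responded more in TRB cells by 1.71 on the log2 scale (edgeR adjusted p 0.00298). FOXA1 differed by 1.86 in the same direction (edgeR adjusted p 0.00206), with a level of 37.5 ± 1.96 CPM in EV with T3 and 114 ± 9.58 CPM in TRB with T3 (SD, n = 3 libraries). JAG1 differed by -1.56 (edgeR adjusted p 0.00346). LGR5 differed by 1.88 (edgeR adjusted p 0.00987), and NOX1 by 2.81 (edgeR adjusted p 0.00278). TBX3 rose in both vectors and more in TRB cells, by 1.18 (edgeR adjusted p 0.0161), and it did not pass in 6 of 22 alternatives, with an adjusted p up to 0.131. THRB, carried by the vector, differed by 1.72 (edgeR adjusted p 0.0187), and it did not pass in 10 of 22 alternatives, where the highest adjusted p, 0.0787, came when EV vehicle replicate 2 was left out.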

How the results depend on the processing

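Of 526 recomputed changes of the 4 tested genes, 495 kept their direction and side of the threshold, 18 newly passed and 13 changed sign; 0 of the 13 passed under either setting. The count of the 9 genes called in edgeR with 12 libraries was 0 in each comparison. Under T3 in TRB cells it became 1 in limma-voom, 2 with GC offsets and 3 with GC offsets on 11 libraries, and 0 to 1 over the fits that left out a library. Under T3 in EV cells it became 1 with GC offsets on 11 libraries and 0 to 1 over those fits. Between TRB T3 and EV vehicle it became 1 in DESeq2, 2 with GC offsets on 12 or 11 libraries, and 0 to 1 over those fits. Each 1 in those fits came without TRB T3 replicate 2. In the other 3 comparisons the count was 0 throughout. Over all genes under T3 in TRB cells, GC offsets called 42.8% with 12 libraries and 56.1% with 11. With GC offsets on 11 libraries, 2180 of 12306 tested genes were called under T3 in EV cells and 6588 between TRB T3 and EV vehicle. Shares of all genes called by limma-voom and DESeq2, and with GC offsets on 12 libraries between TRB T3 and EV vehicle, are not given here.

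The sign changes were these. NKX2-1 under T3 in EV cells (0.10) became -0.034 with GC offsets, -0.022 when these were used on 11 libraries, and -0.13 to 0.37 over the fits that left out a library, with -0.12 and -0.13 without replicate 2 of EV vehicle and of EV T3. PAX8 between TRB and EV vehicle (0.12) became -0.046 with GC offsets and -0.060 on 11 libraries. NKX2-1 there ran from -0.033 (without EV vehicle replicate 2) to 0.45 over those fits. GLIS3 between TRB and EV under T3 (-0.051) became 0.052 with GC offsets on 11 libraries, and ran from -0.12 to 0.11 over those fits, with 0.079 without EV T3 replicate 2 and 0.11 without TRB T3 replicate 2. Its interaction ran from -0.20 to 0.034 over the fits that left out a library, the latter without TRB T3 replicate 2. The cause was not tested.

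Replicate numbers recur in every group, and the labels do not say that they mark a shared culture or day. Of 18 same-number pairs 12 had a correlation of deviations over 0.1 (range -0.19 to 0.73), and 7 of 12 libraries lay closest to their own number. All 3 pairs were over 0.1 between TRB T3 and EV vehicle (0.16 to 0.50), but not in the other group pairs, so whether the numbers pair libraries was not settled. With a replicate block 0 of the 9 genes were called in any of the 6 comparisons. The block took the calls over all genes under T3 in EV cells from 33 to 18 and ended those of TBX3 and NOX1 there (adjusted p 0.0893 and 0.0755). With the block and GC offsets 1 was called under T3 in TRB cells and 2 between TRB T3 and EV vehicle. The share of all genes called in this fit is not given here, so these counts cannot be set against it. In the same fit NKX2-1 under T3 in EV cells became -0.038 and PAX8 between TRB and EV vehicle -0.053.

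Counts over all genes ran from 634 (compared groups alone) to 6909 (GC offsets on 11 libraries) under T3 in TRB cells, 10 to 2180 under T3 in EV cells, 1 to 1563 between TRB and EV in vehicle, 32 to 5144 between them under T3, 385 to 6588 between TRB T3 and EV vehicle and 136 to 4237 in the interaction. At 1 to 17 counts of NKX2-1 and HHEX per library, and fewer of TG, DUOX1 and SLC5A5, depth limits what could be detected.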
